A study of Mus musculus with 4 samples.

Results

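Imprinted growth genes were examined in MEFs (mouse embryonic fibroblasts, the spindle-shaped cells cultured from embryonic connective tissue) labelled NFAT5/TonEBP knockout or wild type. The genes were 10 named imprinted genes that are active in embryonic mesenchyme: Mest, Peg3, H19, Dlk1, Plagl1, Grb10, Ndn, Peg10, Sgce and Slc38a4. A gene was taken when its symbol stood alone on a probe set in the platform annotation. That held for 9 of the 10, each with 1 probe set, out of 19938 genes in all, and H19 is not analysed here. The 4 groups were knockout-labelled cells in hypertonic medium, knockout-labelled cells in isotonic medium, wild-type cells in hypertonic medium and wild-type cells in isotonic medium. Non-synchronised cultures stayed 20 hours in their medium, and NaCl raised the hypertonic one to 450 mosmol/kg. For each group, a pool of 4 samples was hybridised to 1 Affymetrix array of the Mouse Gene 1.0 ST type. The deleted part of Nfat5, the mouse strain, the age of the embryos and the number of cell isolates were not given in the sources used here.

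At an imprinted gene 1 parental copy is silenced by DNA methylation or by chromatin marks laid down in the germ line, so the expressed copy comes from a fixed parent. Many imprinted genes are strongly expressed in the embryo and placenta, decline after birth and set fetal growth, and a group of them is expressed together in mesenchymal tissues. Plagl1, also called Zac1, encodes a zinc finger transcription factor that binds other imprinted genes of this group. NFAT5, the factor labelled as deleted, switches on osmolyte transporters in hypertonic medium.

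With 1 array per group no spread between replicates could be measured, so no test was made, and all values describe these 4 pools. Signals and differences are on the log2 scale, where a difference of 1 is 2-fold. A gene was called at 2-fold, and it counted as measured wherever at least 1 of the arrays compared gave a signal above the dim limit. That limit, set on each array at the median over one-gene probe sets, lay between 5.38 and 5.44. Signals under it mix background with expression. Array medians lay between 4.87 and 4.91, and the 10 measured housekeeping genes had median differences between -0.03 and 0.03 in the 5 comparisons. Among 462 genes with 2 probe sets, the SD per probe set of a difference was 0.21 and 0.19 in the hypertonic and isotonic genotype differences, 0.19 in the knockout-labelled response, 0.15 in the wild-type response, and 0.23 in the difference of responses. Nfat5 itself read 8.24 and 8.03 in knockout-labelled hypertonic and isotonic cells, against 8.19 and 7.74 in the matching wild-type cells, so its probe set did not check the label. Xist, whose RNA coats and silences the inactive X of female cells, read 3.16 and 3.75 in knockout-labelled hypertonic and isotonic cells, against 9.31 and 8.99 in wild-type hypertonic and isotonic cells. The knockout-labelled and wild-type cells thus differed in more than the labelled gene, and genotype and origin of the cells cannot be told apart.

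Promoters are shown for the 5 members that were at least 2-fold lower in knockout-labelled hypertonic cells and had a window in the RefSeq promoter table, since at Mest, Peg3 and Plagl1 the parental mark is known to be methylation of CG dinucleotides at a promoter. Sequences are the 250 bases before a RefSeq transcript start on GRCm38.p6, 5′ to 3′ on the gene's strand, with each CG in capitals. Where RefSeq gave several starts, the window with the most CG was taken, and of equal ones the more upstream. The windows are chr6:30737800-30738049 (plus strand) for Mest, chr7:6730420-6730669 (minus) for Peg3, chr10:13090582-13090831 (plus) for Plagl1, chr15:97031214-97031463 (minus) for Slc38a4 and chr11:12037421-12037670 (minus) for Grb10.
Mest: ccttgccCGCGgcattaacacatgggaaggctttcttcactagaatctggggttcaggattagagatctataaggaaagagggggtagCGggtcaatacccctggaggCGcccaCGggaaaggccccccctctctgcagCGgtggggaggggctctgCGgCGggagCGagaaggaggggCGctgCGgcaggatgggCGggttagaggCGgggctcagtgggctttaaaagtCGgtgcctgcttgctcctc
Peg3: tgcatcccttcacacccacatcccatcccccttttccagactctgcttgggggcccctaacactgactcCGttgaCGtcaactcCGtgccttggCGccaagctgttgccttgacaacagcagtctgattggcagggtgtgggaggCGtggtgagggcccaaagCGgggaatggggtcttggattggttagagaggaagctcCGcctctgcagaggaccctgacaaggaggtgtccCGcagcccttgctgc
Plagl1: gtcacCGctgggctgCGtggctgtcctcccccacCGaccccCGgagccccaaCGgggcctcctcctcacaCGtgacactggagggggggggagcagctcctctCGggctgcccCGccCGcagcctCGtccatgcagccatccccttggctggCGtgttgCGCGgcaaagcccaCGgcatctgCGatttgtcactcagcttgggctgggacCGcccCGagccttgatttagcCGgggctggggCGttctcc
Slc38a4: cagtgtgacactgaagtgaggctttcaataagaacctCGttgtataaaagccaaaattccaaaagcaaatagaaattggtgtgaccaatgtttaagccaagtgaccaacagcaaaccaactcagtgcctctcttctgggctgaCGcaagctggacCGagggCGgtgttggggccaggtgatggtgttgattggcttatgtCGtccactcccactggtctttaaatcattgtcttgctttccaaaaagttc
Grb10: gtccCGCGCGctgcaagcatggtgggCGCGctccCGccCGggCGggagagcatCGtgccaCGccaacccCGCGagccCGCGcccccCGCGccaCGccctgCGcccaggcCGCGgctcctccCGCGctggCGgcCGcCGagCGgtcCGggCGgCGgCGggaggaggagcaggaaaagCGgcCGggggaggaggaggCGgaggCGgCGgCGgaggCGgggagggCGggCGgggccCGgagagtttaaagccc

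CG content differed between the windows shown. The Grb10 window held 40 CG, more than 98.7% of 32851 promoter windows of that length, whose median was 6. Plagl1 had 19, Mest 14 and Peg3 8, while Slc38a4 had 5, which exceeded 44.4% of all windows. Other windows held as few as 8 CG for Grb10, 7 for Mest and 3 for Slc38a4. The contrast thus rests in part on taking the window with the most CG. Of the members, 7 had such a window, and Peg10, Sgce and H19 did not. The sequence GGGGCCCC, a palindrome contained in GC-rich sites described for PLAGL1 that reads the same on both strands, occurred in the Peg3 window shown and in none of the other 11 windows of the members, against 0.889% of all windows. TGGAAA, the core of the tonicity element that NFAT5 binds, was searched on both strands and overlaps no GGGGCCCC by its letters. It occurred in 5 of the 12 member windows, those of Peg3, Dlk1 and Ndn and 2 of the 3 of Slc38a4, against 18.6% of all windows. Such matches describe letters and are not binding sites.

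Knockout-labelled cells had lower signals than wild-type cells for most members, and the gap was wider in hypertonic medium. There, 7 of the 9 members were at least 2-fold lower and none was higher, beside 6.43% of 10374 measured genes that were 2-fold lower and 2.57% that were higher. The 7 were Slc38a4, Mest, Peg3, Sgce, Plagl1, Grb10 and Peg10, and the median over the 9 was -1.40, beside -0.01 over all measured genes. All 9 values were below 0, beside 50.5% of measured genes. In isotonic medium 4 of the 9 were at least 2-fold lower, Slc38a4, Peg3, Plagl1 and Mest, and none was higher, beside 1.28% of 10191 measured genes that were 2-fold lower and 1.59% that were higher. Values below 0 were found for 7 of the 9, beside 45.2% of measured genes. The isotonic median was -0.81, beside 0.03 over all measured genes. Those 4 were the members at least 2-fold lower in both media, as were 0.939% of the 10542 genes above the dim limit on any array. The hypertonic difference was the more negative for 8 of the 9, all but Dlk1, as for 55.5% of genes. Mest and Peg3 counted as measured in both media only through their wild-type arrays, Slc38a4 in hypertonic medium only through the wild-type array, and Dlk1 in isotonic medium likewise, so such members could enter only if bright in wild-type cells. The members were chosen with earlier results of these data known, so the shares over all genes beside their counts are description only. The counts also rest on the medium labels of the knockout-labelled arrays. With those exchanged, 4 members would be 2-fold lower in hypertonic medium, Slc38a4, Mest, Peg3 and Plagl1. In isotonic medium 6 would be, the same 4 with Grb10 and Peg10. Over all genes, 261 would then be 2-fold lower in hypertonic and 485 in isotonic medium, against 667 and 130 as labelled.

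**Figure D1:**
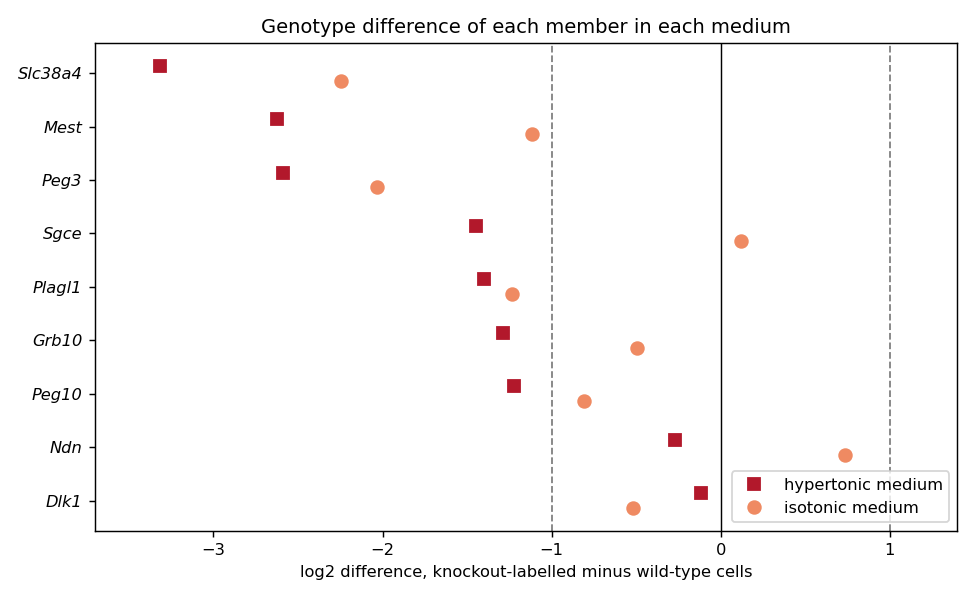
Log2 difference between knockout-labelled and wild-type cells (horizontal axis) for each of the 9 members, in hypertonic (squares) and isotonic (circles) medium, 1 array per group. Dashed lines mark 2-fold. In hypertonic medium all 9 squares lie below 0 and 7 lie beyond -1.

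Slc38a4, which encodes an amino acid transporter of system A and is expressed from the paternal copy, had the widest range of the members. Its signal was 5.13 in knockout-labelled hypertonic and 5.71 in knockout-labelled isotonic cells, against 8.44 in wild-type hypertonic and 7.96 in wild-type isotonic cells. Both knockout-labelled arrays lay near the dim limit and both wild-type arrays far above it. The difference was -3.32 in hypertonic medium, 9.97-fold, at place 22 from the lowest of 10374 measured genes, and -2.25 in isotonic medium, 4.75-fold, at place 10 of 10191. With the dim knockout-labelled hypertonic signal raised to the dim limit, the hypertonic difference was still -3.04.

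Mest, a paternally expressed gene of embryonic mesoderm whose protein has the fold of a hydrolase, read 4.86 in knockout-labelled hypertonic and 5.17 in knockout-labelled isotonic cells. In wild-type cells it read 7.49 in hypertonic and 6.29 in isotonic medium. For Mest the wild-type hypertonic array was the highest, and neither knockout-labelled array reached the dim limit. Its genotype difference was -2.62 in hypertonic medium, 6.17-fold, and -1.11 in isotonic medium. Raising dim signals to the limit left -2.08 and -0.90, so the isotonic call did not hold.

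Peg3 encodes a large zinc finger protein made from the paternal copy. Its signal was 4.51 and 4.13 in knockout-labelled hypertonic and isotonic cells, against 7.10 and 6.17 in wild-type hypertonic and isotonic cells. The knockout-labelled arrays both fell short of the dim limit by a wide margin, and both wild-type arrays exceeded it. Differences were -2.59 in hypertonic and -2.03 in isotonic medium, or -1.70 and -0.78 with dim signals raised to the limit, which again ended the isotonic call.

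Plagl1, the transcription factor gene introduced above, was lower in knockout-labelled cells in both media. It read 5.63 and 5.57 in knockout-labelled hypertonic and isotonic cells, against 7.03 and 6.81 in wild-type hypertonic and isotonic cells. All 4 signals exceeded the dim limit, the knockout-labelled ones narrowly. The genotype difference was -1.40 in hypertonic and -1.23 in isotonic medium, nearly the same in both.

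**Figure D2:**
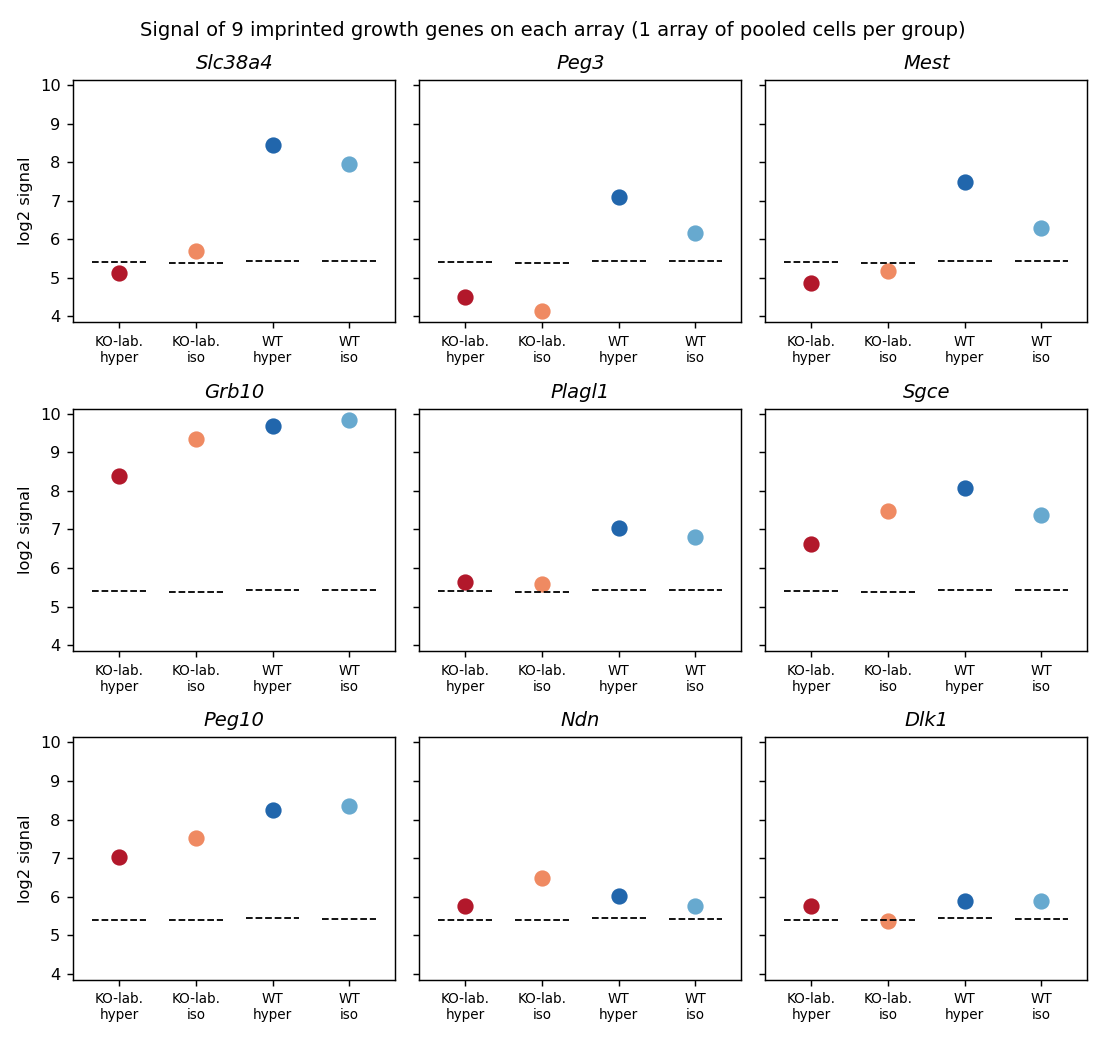
Log2 signal (vertical axis) of each member on the knockout-labelled hypertonic, knockout-labelled isotonic, wild-type hypertonic and wild-type isotonic arrays, from left to right, 1 point per array. Dashed lines mark the dim limit of each array. Slc38a4, Peg3 and Mest lie near or under it in knockout-labelled cells and above it in wild-type cells.

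Grb10, an adaptor protein that dampens insulin and IGF signalling and is made from the maternal copy in most tissues, kept a strong signal in every group. It read 8.39 and 9.35 in knockout-labelled hypertonic and isotonic cells, against 9.68 and 9.85 in wild-type hypertonic and isotonic cells. The knockout-labelled hypertonic array stood below the other 3. Its difference was -1.29 in hypertonic and -0.50 in isotonic medium.

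Peg10, a gene derived from a retrotransposon that the placenta needs, and Sgce, encoding epsilon-sarcoglycan, are direct neighbours and both are expressed from the paternal copy. Peg10 read 7.02 and 7.53 in knockout-labelled hypertonic and isotonic cells, against 8.24 and 8.34 in wild-type hypertonic and isotonic cells. Sgce read 6.63 and 7.49 in knockout-labelled hypertonic and isotonic cells, against 8.08 and 7.37 in the matching wild-type cells. For Peg10 both knockout-labelled arrays lay below both wild-type arrays, whereas for Sgce the isotonic arrays differed by 0.12. In hypertonic medium their differences were of like size, -1.22 for Peg10 and -1.45 for Sgce, and in isotonic medium Peg10 had -0.81.

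Dlk1 and Ndn were the members past 2-fold in neither medium. Dlk1, encoding a transmembrane protein of the Notch ligand type that holds back fat cell formation, read 5.76 and 5.38 in knockout-labelled hypertonic and isotonic cells, against 5.88 and 5.89 in wild-type cells. These values lay within 0.52 of each other and close to the dim limit. Ndn encodes necdin, a growth suppressor of the MAGE family. It read 5.74 and 6.49 in knockout-labelled hypertonic and isotonic cells, against 6.02 and 5.76 in wild-type hypertonic and isotonic cells, so that its isotonic difference was 0.74 and its hypertonic one -0.27. Over the 4 arrays, both knockout-labelled signals lay below both wild-type signals for 7 of the 9 members, the exceptions being Ndn and Sgce, as for 21.5% of 10542 genes, and these 7 were also the members below 0 in both media, beside 29% of genes. The knockout-labelled hypertonic array was the lowest of the 4 for 6 members, beside 37.8% of genes, and the wild-type hypertonic array was the highest for 5, beside 23.2%.

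Most of the measured fibroblast markers were lower in knockout-labelled cells as well, though not all. Of 12 markers 11 had a probe set, and 9 of them exceeded the dim limit on every array, while Dcn and Lum exceeded it on none. In hypertonic medium 6 of the 9 were at least 2-fold lower in cells labelled knockout (median -1.55), beside 6.43% of measured genes. In isotonic medium 2 of 9 were (median -0.36), beside 1.28%. Vim had -0.07 and 0.17 in hypertonic and isotonic medium, Fn1 0.23 and -0.07, and Thy1 -0.62 and -1.54. Col1a1, a chain of type I collagen, read 10.93 and 11.76 in knockout-labelled hypertonic and isotonic cells, against 12.57 and 12.43 in wild-type cells. The summed linear signal of the 11 markers was 12727 and 17421 in knockout-labelled hypertonic and isotonic cells, against 22689 and 20631 in wild-type hypertonic and isotonic cells. Their part in the members' differences was not tested. In such bulk samples fewer cells of a type and less RNA per cell cannot be told apart. Of 7 endothelial markers none exceeded the dim limit on any array, nor did Ptprc, the common leukocyte antigen. Of 7 leukocyte, 7 muscle, 6 adipocyte and 8 pluripotency and germ cell markers at most 1 exceeded it on any one array, and of 8 epithelial markers 3 or 4 did. Sox2, a pluripotency and neural factor, read 8.59 and 8.12 in knockout-labelled hypertonic and isotonic cells, against 5.35 and 5.25 in wild-type cells, whereas Pou5f1 and Nanog stayed below the limit throughout. Of 6 neural and glial markers with a probe set, 3 exceeded the limit on every array, with a median of -0.41 in hypertonic and -1.34 in isotonic medium. Tubb3, a neuronal tubulin, differed by -1.07 in hypertonic and -2.09 in isotonic medium, and Nes, an intermediate filament of progenitor cells, by -0.41 and -1.34, while Ngfr had 0.14 and -0.18. The part of these markers in the members' differences was not tested either.

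In knockout-labelled cells no member passed 2-fold in response to hypertonic medium. Mest and Peg3 were under the dim limit on both arrays and were not measured, which left 7 members, beside 3.08% of 10277 measured genes that were 2-fold lower and 0.379% that were higher. Over all genes 11.0% of those called were higher, a share that became 22.7% after quantile normalization and 22.1% after centring. Grb10 had the most negative member value, -0.96, from a signal of 8.39 in hypertonic against 9.35 in isotonic medium. Sgce (-0.86), Ndn (-0.75), Slc38a4 (-0.58) and Peg10 (-0.52) were below 0 too, while Plagl1 (0.06) and Dlk1 (0.38) were above 0. That is 5 of 7 below 0, beside 60.1% of measured genes. The median of the 7 was -0.58, beside -0.09 over all measured genes. It was the value of Slc38a4, whose hypertonic signal was under the dim limit, and with that signal raised to the limit Slc38a4 had -0.30 and the median was -0.52. Which knockout-labelled array is the hypertonic one is known from its label alone. Were the 2 exchanged, every sign of this comparison would turn, and 89.0% of the genes called would be higher.

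In wild-type cells Mest was the member that differed at least 2-fold between media. It was higher in hypertonic medium by 1.20, and 99.3% of 10134 measured genes had a smaller value. That is 1 of 9 members, beside 1.01% of measured genes that were 2-fold higher and 0.414% that were lower. Peg3 followed with 0.94, Sgce with 0.71 and Slc38a4 with 0.49, while Ndn (0.26), Plagl1 (0.22), Dlk1 (-0.02), Peg10 (-0.10) and Grb10 (-0.17) lay nearer 0. The median of the 9 was 0.26, beside -0.02 over all measured genes. Values below 0 were found for 3 of the 9, beside 53.9% of measured genes.

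Subtracting the wild-type from the knockout-labelled response gave a value at least 2-fold negative for Sgce (-1.57), Mest (-1.51), Slc38a4 (-1.07) and Ndn (-1.01). These are 4 of 9 members, beside 5.53% of 10542 genes, and no member was 2-fold positive, beside 1.41%. The Ndn call did not hold after quantile normalization (-0.92) or centring (-0.95), which left 3 of 9. With the medium labels of the knockout-labelled arrays exchanged, 1 member would be 2-fold negative, Peg3 (-1.31), and 1 positive, Grb10 (1.13), with Sgce at 0.15. Over all genes, 205 would then be 2-fold negative and 524 positive, against 583 and 149 as labelled. As labelled, Sgce, Mest, Slc38a4 and Ndn each had a response above 0 in wild-type and below 0 in knockout-labelled cells, as had 27.3% of genes. Values for Grb10 (-0.79), Peg3 (-0.56), Peg10 (-0.41) and Plagl1 (-0.16) were negative too, and Dlk1 (0.40) was positive, so that 8 of 9 lay below 0, beside 55.5% of genes. The Mest, Peg3 and Slc38a4 values draw on knockout-labelled signals under the dim limit, and with these raised to it Mest had -1.18, Peg3 -0.91 and Slc38a4 -0.79.

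**Figure D3:**
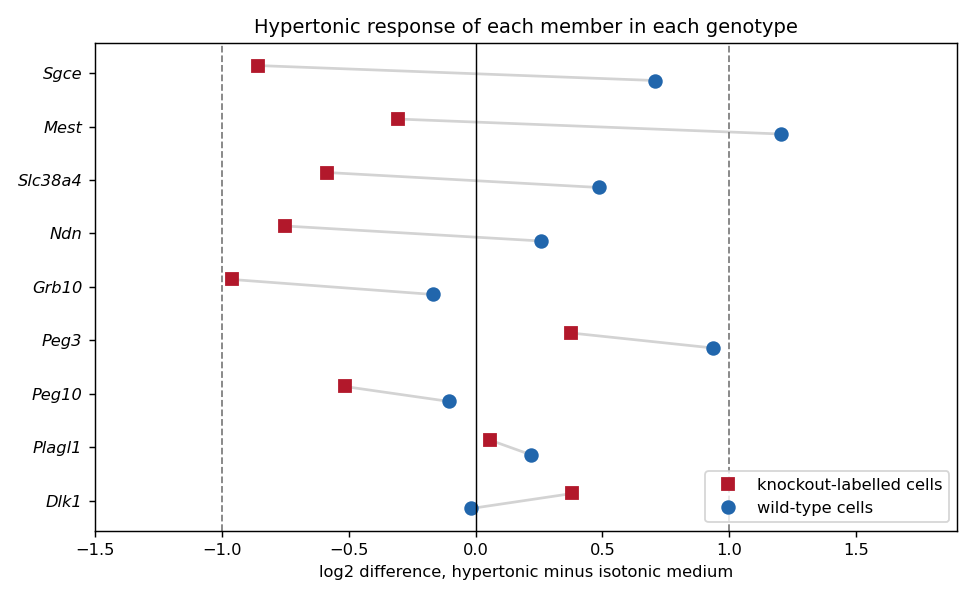
Log2 difference between hypertonic and isotonic medium (horizontal axis) for each member in knockout-labelled (squares) and wild-type (circles) cells, 1 array per group. Dashed lines mark 2-fold, grey lines join the values of a gene, and the squares of Mest and Peg3 come from signals under the dim limit. The widest gaps are those of Sgce and Mest, and Plagl1 has the narrowest.

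The other imprinted genes had genotype medians near 0. They were listed for imprinting alone, whereas the members are also genes active in embryonic mesenchyme. Whether each is imprinted in these cells was not measured. Of 66 listed, 53 had a probe set and 23 exceeded the dim limit on at least 1 array. In hypertonic medium 22 were measured, of which Trappc9 (-1.03) and Copg2, barely past the limit, were at least 2-fold lower in knockout-labelled cells and Gatm (1.21), the first enzyme of creatine synthesis, was higher. Of all measured genes 6.43% were 2-fold lower there and 2.57% higher. The median of the 22 was 0.03, with 11 values on either side of 0. In isotonic medium 23 were measured, none was 2-fold lower, and Casd1 (1.07) and Gatm (1.05) were higher, with a median of 0.06. The shares of all measured genes were 1.28% lower and 1.59% higher. In the knockout-labelled response, Sfmbt2 (-1.09) and Copg2 (-1.08) were the 2 of 23 that were 2-fold lower, beside 3.08% of measured genes. The median was -0.40. In the wild-type response none of 21 passed, with a median of -0.06. In the difference of responses Copg2 (-1.55) was the 1 of 23 that was 2-fold lower, beside 5.53%, with a median of -0.28. Igf2r, the maternally expressed receptor that clears IGF2, read 9.61 and 9.22 in knockout-labelled hypertonic and isotonic cells, against 9.03 and 9.14 in wild-type hypertonic and isotonic cells. Igf2, the growth factor gene beside H19, and Meg3, the non-coding RNA gene beside Dlk1, stayed under the dim limit on all 4 arrays. Cdkn1c, a maternally expressed inhibitor of cyclin-dependent kinases, read 7.82 and 7.07 in knockout-labelled hypertonic and isotonic cells, against 7.34 and 6.66 in wild-type cells. Its differences, 0.48 and 0.41, were opposite in sign to those of Plagl1.

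Neighbours of the members lay on both sides of 0 in both genotype differences. Copg2, which lies next to Mest and encodes a coat protein of Golgi vesicles, was higher by 0.55 in knockout-labelled isotonic cells, where Mest was lower. In hypertonic medium both were at least 2-fold lower in knockout-labelled cells, Copg2 barely so. The wild-type response was 0.48 for Copg2 and 1.20 for Mest. The difference of responses was -1.55 for Copg2 and -1.51 for Mest, whose knockout-labelled signals were dim. Casd1, which adjoins Sgce and encodes an enzyme that acetylates sialic acid, read 7.14 and 7.97 in knockout-labelled hypertonic and isotonic cells, against 7.04 and 6.90 in wild-type cells. Its isotonic difference was thus 1.07, while Sgce had 0.12 and Peg10 -0.81. Slc38a2, the system A transporter gene next to Slc38a4, differed by -0.62 in hypertonic and -0.43 in isotonic medium, and its relative Slc38a1 by 0.97 and 0.35. Around H19, Lsp1 (-2.18 and -1.58 in hypertonic and isotonic medium) and Mrpl23 (-1.61 and -0.32) were lower. Some neighbours, Copg2 and Casd1 among them, were also listed with the other imprinted genes, so the lists overlap. In all, 20 of 52 listed neighbours with a probe set were measured in both media. Of these, 3 were at least 2-fold lower in hypertonic medium, Lsp1, Mrpl23 and Copg2, and none was higher, beside 6.43% and 2.57% of measured genes. Values below 0 were found for 12 of the 20 in hypertonic and 10 of the 20 in isotonic medium. In isotonic medium Lsp1 was lower and Casd1 higher, beside 1.28% and 1.59% of measured genes. In the knockout-labelled response Mrpl23 (-1.32) and Copg2 were 2-fold lower, 2 of 20, beside 3.08% of measured genes. In the difference of responses Copg2 and Mrpl23 (-1.29) were 2-fold lower and none was higher, beside 5.53% and 1.41%.

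Genes with the profile most like a member were sought for the 3 members of widest range. Of the 10542 genes above the dim limit on any array, 10187 others were searched. Symbols matching a pattern for provisional names were left out. Likeness was the Euclidean distance between log2 profiles over the 4 arrays, each centred on its own mean. Nearest to Slc38a4 were S100a4, Foxf2, Meox2, Epha3 and Cxcl5, at distances of 0.42 to 0.50. S100a4, a calcium-binding protein gene of fibroblasts, read 7.32 and 7.91 in knockout-labelled hypertonic and isotonic cells, against 11.13 and 10.15 in wild-type cells. Nearest to Peg3 were Dusp1, Ltbp2, Fmod, Grem1 and Coch, at 0.20 to 0.56. Nearest to Mest were Plxdc2, Mrgprf, Fmod, Dap and Aqp1, at 0.16 to 0.33. Fmod, encoding the matrix protein fibromodulin, was named for both, with 3.94 and 4.07 in knockout-labelled hypertonic and isotonic cells against 6.75 and 5.53 in wild-type cells. Among the members themselves the closest pair was Grb10 and Peg10, at 0.34, and Peg10 and Sgce, the neighbours, lay 0.72 apart. In knockout-labelled cells Mest, Peg3, Fmod, Foxf2, Meox2 and Cxcl5 were dim in both media, and Slc38a4, Epha3 and Mrgprf in the hypertonic one. Genes dim in both could enter the search only through their wild-type arrays. Dim signals mix background with expression, so the order of the nearest genes is loosely set. Profiles of 4 points can be alike without any link.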

How the data were processed

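Expression was measured in 4 pools of mouse embryonic fibroblasts. Per the series' labels, each array carries quadruplicate samples pooled into 1. The deposited table gives 1 log2 signal per probe set and array, made by the authors, with the scale read from the values. MAS5 is named, without a version, per the submitters' processing notes, and background correction, normalization and genome build were not given in the sources used here. Of 35557 probe sets, 21789 carried 1 gene symbol in the platform annotation and were used, 1621 carried several and 12147 none. Where a gene had several probe sets, the brightest was used.

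The differences were computed in Python 3.11.15 with pandas 2.3.3 and numpy 2.4.6. Quantile and cyclic loess alternatives used limma 3.58.1 in R 4.3.3, and plots used matplotlib 3.10.9. Other alternatives were centring, averaging probe sets, a 1.5-fold call, and the dim limit dropped or set at the 75th percentile. Raising dim signals to the limit and exchanging the medium labels of the knockout-labelled arrays were added after seeing the data. All members and neighbours above the dim limit could be named, with other list genes past 2-fold, markers as context and, for the 3 members of widest range, the 5 nearest profiles. Igf2, Meg3 and Igf2r were named after their values were seen. The members and lists were chosen with earlier results of these data known. Counting was tested on simulated data.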

Additional observations from a re-analysis of the deposited data

Results flagged for a closer look

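For 4 members the hypertonic responses of the genotypes had opposite signs and differed at least 2-fold, and the difference was not tested, since each group is 1 array. Sgce had -0.86 in knockout-labelled and 0.71 in wild-type cells, a difference of -1.57. Mest had -0.31 and 1.20, a difference of -1.51, with both knockout-labelled signals under the dim limit, and -1.18 with them raised to it. Slc38a4 had -0.58 and 0.49, a difference of -1.07, with the knockout-labelled hypertonic signal under the dim limit, and its difference was -0.79 with that signal raised to the limit. Ndn had -0.75 and 0.26, a difference of -1.01, which was -0.92 after quantile normalization and -0.95 after centring.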

How the results depend on the processing

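Quantile normalization, cyclic loess and centring each left all 43 member differences within the spread of a probe set. The 1 call they ended was the Ndn difference of responses, which was -0.92 after quantile normalization and -0.95 after centring. Averaging probe sets could not move a member, since each has 1. With the dim limit at the 75th percentile fewer members were tested. The number past 2-fold became 4 of 4 in the hypertonic genotype difference and 1 of 3 in the isotonic one. It became 0 of 4 in the wild-type response and 2 of 4 in the difference of responses. Of all genes tested at that limit, 319 of 5446 were 2-fold lower and 138 higher in the hypertonic genotype difference. The isotonic one had 41 and 71 of 5199. Counts were 20 and 49 of 5187 in the wild-type response, and 270 and 68 of 5675 in the difference of responses. Grb10 was then the 1 member measured in the knockout-labelled response, with -0.96. At 1.5-fold, 3 of 7 members were past the limit in the knockout-labelled response, all lower, beside 1237 of 10277 measured genes that were lower. In the wild-type response 3 of 9 were, all higher, beside 418 of 10134 measured genes that were higher. Raising dim signals to the limit, an alternative chosen after seeing the data, left 2 members past 2-fold in the isotonic genotype difference, Plagl1 and Slc38a4. It moved 9 of 43 member differences and ended 3 calls, those of Mest and Peg3 in isotonic medium and of Slc38a4 in the difference of responses.

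Over all genes, those at least 2-fold lower numbered 667 in the hypertonic and 130 in the isotonic genotype difference as deposited, against 319 and 41 with the limit at the 75th percentile and 1562 and 394 at 1.5-fold. Those 2-fold higher numbered 267 and 162, against 138 and 71 with that limit and 905 and 501 at 1.5-fold. In the knockout-labelled response 317 were lower and 39 higher, against 110 and 11 with the limit at the 75th percentile and 1237 and 440 at 1.5-fold, and those higher were 63 after quantile normalization, 66 after centring and 24 with dim signals raised. In the wild-type response 42 were lower and 102 higher, against 20 and 49, and 334 and 418 at 1.5-fold. In the difference of responses 583 were lower and 149 higher, against 270 and 68, and 1624 and 818 at 1.5-fold, with 246 higher without a dim limit. Fewer genes were tested with the limit at the 75th percentile. Low signals limit Mest and Peg3 most. No paired analysis was possible because each group has 1 array.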

Other observations

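Genes of imprint maintenance, DNA methylation and chromatin were also read, the Tet and Dnmt3 genes among them. Of 23 listed, 18 were measured and none differed 2-fold in any of the 5 comparisons. Of all measured genes, 6.43% were 2-fold lower and 2.57% higher in the hypertonic genotype difference. In the isotonic one 1.28% were lower and 1.59% higher. With shares this low, none of 18 does not set the listed genes apart. The median genotype difference of the 18 was -0.14 in hypertonic and 0.02 in isotonic medium. Dnmt1, the maintenance DNA methyltransferase gene, read 9.66 and 9.56 in knockout-labelled hypertonic and isotonic cells, against 9.52 and 9.54 in wild-type hypertonic and isotonic cells. Zfp57, encoding a zinc finger protein that protects imprints, read 6.34 and 6.38 in knockout-labelled hypertonic and isotonic cells, against 6.55 and 6.95 in wild-type hypertonic and isotonic cells. Dnmt1 and Zfp57 were picked after their values were seen.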
